A study of Danio rerio with 7 samples.

Results

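The posterior cut edge of the zebrafish tail fin was followed over time in 4 RNA sequencing libraries. They were 1 control library, whose labels name no edge and no time, and 3 libraries of that edge, abbreviated PCE, with 1 each for 24, 48 and 72 h after amputation. The labels give no strain, age or genotype, do not say whether the control fin was uncut, and do not say how many fish each library holds. The same series holds 3 libraries of the anterior cut edge (ACE), used here only beside the PCE values. Expression was given as FPKM, fragments scaled to the length of the feature and to the total of the library. The features are clusters, known by an identifier alone, and 0 of the 433380 identifiers were found in the zebrafish gene tables, so no cluster is given a gene name and the labelled tissue could not be checked against marker genes. A cluster was kept if it reached at least 1 FPKM (called detected here) in 2 or more of the 4 libraries and a mean of at least 5 FPKM over them. This kept 24898 clusters, 5.75% of the table.

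A tail fin that is cut grows back in stages. Epidermis first covers the wound, cells beneath it then lose mature features and gather as the blastema, a mass of proliferating cells, and the blastema later grows out and forms the fin rays and the tissue around them. By its title the study deals with calcineurin, a phosphatase activated by calcium, and with blastema polarity. The time course shows which transcripts leave their control level early, which do so later, and which come back to it by 72 h.

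With 1 library per group there is no replicate check, so sizes are given and no p-values. Differences are PCE minus control on log2(FPKM + 1), and a cluster counted as changed at a size of at least 1. Levels in bulk samples can differ because fewer cells of a type were present or because each cell held less of the RNA, and these cannot be told apart here.

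The detection condition and the minimum mean decide which courses can be seen at all. Of the 44228 clusters with a mean of at least 5 FPKM, 19330 were detected in a single library and were removed, of which 12624 were detected in PCE 24 h alone, 3567 in PCE 48 h alone, 2200 in PCE 72 h alone and 939 in the control alone. A cluster detected in the control and at no later time is therefore no member. The mean is also taken over 3 PCE libraries and 1 control, which favours clusters that are high at the edge. Just below the minimum, 2155 clusters had a mean of 4.5 to 5 FPKM and passed the detection condition, and just above it 1827 members had a mean of 5 to 5.5 FPKM.

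The kept clusters held 83.6% of the summed FPKM of the control, and 61.3%, 85.1% and 86.9% of that of PCE at 24, 48 and 72 h. PCE 24 h thus had the largest part of its signal outside the members, and the shares at the later times are also given without it. Ratios of low FPKM values gave a rough estimate of depth of 0.742, 1.01 and 0.774 for PCE at 24, 48 and 72 h relative to the control. The number of fragments behind a single cluster is unknown, since cluster lengths were not used here.

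Of the members, 13695 (55.0%) were detected in all 4 libraries, 5260 in 3 and 5943 in 2. A member that is missing from a library had to differ from those that hold it, so the main shares below are also given for the 13695. Members were listed at exactly 0 in the control in 4462 cases and in PCE at 24, 48 and 72 h in 3499, 3157 and 3527 cases. Such zeros also occur beside high values. In 78 members PCE 24 h was listed at 0 while the other 3 libraries were at 20 FPKM or more, and the same held for the control in 110 members, for PCE 72 h in 45 and for PCE 48 h in 18.

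Most members had already left the control level at 24 h, and the number that differed stayed similar at the later times. At 24 h, 9146 clusters were higher (36.7%) and 6097 lower (24.5%). At 48 h, 9297 were higher (37.3%) and 6054 lower (24.3%), and at 72 h 8211 were higher (33.0%) and 7938 lower (31.9%). The median size of the difference was 1.46, 1.42 and 1.53 at 24, 48 and 72 h. These shares are the background against which counts in smaller sets are to be read. With detection in all 4 libraries the changed share was smaller and rose with time, at 44.4%, 50.4% and 53.3%.

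**Figure D1:**
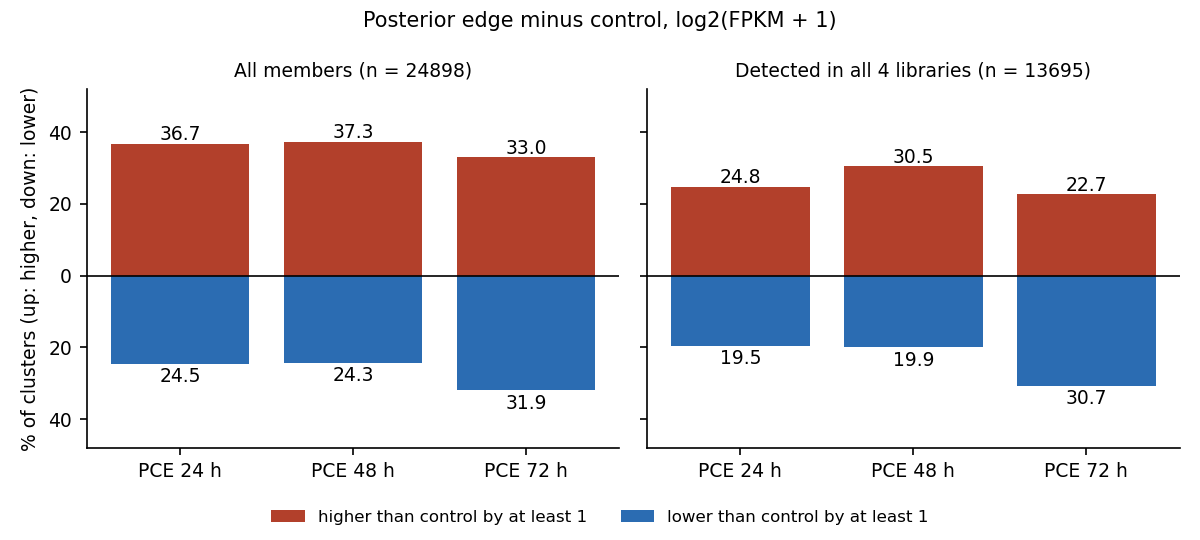
Share of clusters that differed from the control by at least 1 on log2(FPKM + 1) at PCE 24, 48 and 72 h, with clusters higher at the edge drawn upward and clusters lower at the edge drawn downward, for all 24898 members (left) and the 13695 detected in all 4 libraries (right). The lower share is largest at 72 h in both panels (31.9% and 30.7%), on the authors' scale.

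The balance of higher and lower clusters shifted toward lower at 72 h, but it depends on the set and on the scale. Higher clusters made up 60.0%, 60.6% and 50.8% of the changed members at 24, 48 and 72 h. In clusters detected in all 4 libraries the shares were 56.0%, 60.5% and 42.5%, with 3105 higher and 4198 lower at 72 h. When the mean weighted the control equally with the 3 PCE libraries together, the shares were 47.2%, 48.6% and 38.8%. Median-of-ratios scaling, which sets the typical cluster equal between libraries, raised PCE 72 h by 0.34 relative to the control and gave 59.1%, 58.8% and 57.3% of the changed members. On that scale the clusters detected in all 4 libraries stood at 54.5% at 72 h. The predominance of lower clusters at 72 h thus did not hold on that scale. Over all clusters detected in all 4 libraries, the median difference at 72 h was -0.26 on the authors' scale and 0.05 after the scaling. Since the scaling takes out a shift shared by most clusters, it removes such a predominance in part by design.

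Most members were counted as first changed at 24 h, the time that is compared first. An unusual value in the control library would also be counted there. Without PCE 24 h, first change came at 48 h in 62.7% of clusters, so the falling order follows in part from the definition. The first difference of at least 1 came at 24 h in 15243 members (61.2%), at 48 h in 4805 (19.3%) and at 72 h in 1693 (6.80%), while 3157 (12.7%) never reached it. Only 652 members (2.62%) stayed within 0.5 of the control at all 3 times. With detection in all 4 libraries it came at 24 h in 44.4%, at 48 h in 21.6% and at 72 h in 10.9%, and 23.1% never changed. By direction, first changes at 48 h were higher in 2951 members and lower in 1854. Those at 72 h were higher in 234 and lower in 1459 on the authors' scale, and higher in 500 and lower in 909 with median-of-ratios scaling.

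Looked at step by step, the change from the control to 24 h was the largest of the 3 steps in 10908 members, that from 24 to 48 h in 8310, and that from 48 to 72 h in 5680. From 48 to 72 h, 4591 clusters went up by at least 1 and 8061 went down. The step from 24 to 48 h had 6985 up and 7568 down. Among clusters detected in all 4 libraries, 3080 went up and 2354 down from 24 to 48 h, and 1046 went up and 3762 down from 48 to 72 h. The last step also moves with the scale, with 1891 of these clusters up and 2159 down after median-of-ratios scaling.

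Persistent change, at least 1 in the same direction at all 3 times, was found in 3384 members that were higher (13.6%) and 2636 that were lower (10.6%). Which group is larger depends on the processing. The shares were 11.2% higher and 16.3% lower with the mean that weights the control equally, 9.04% and 13.7% with quantile normalization, and 7.95% and 9.46% with a minimum mean of 1 FPKM. The persistently higher clusters had a median of 0.970 FPKM in the control and of 18.9, 16.8 and 14.4 FPKM at 24, 48 and 72 h. The persistently lower ones had a median of 29.1 FPKM in the control and of 4.25, 4.45 and 3.33 FPKM. By definition both groups were away from the control at 24 h and stayed so. Their median differences at the 3 times were 2.84, 2.71 and 2.57 for the higher and -2.50, -2.49 and -2.84 for the lower group. The higher group was farthest from the control at 24 h in 1350 clusters, at 48 h in 1207 and at 72 h in 827. The lower group was farthest at 24 h in 1004, at 48 h in 698 and at 72 h in 934. With detection in all 4 libraries the order of the times differed. There 526, 670 and 482 clusters of the higher group were farthest at 24, 48 and 72 h, and 314, 385 and 598 of the lower group.

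The part of the summed FPKM held by these groups differed between the control and the PCE libraries. This follows in part from their definition as higher or lower than the control. The persistently higher clusters held 1.77% of the control's summed FPKM and 10.4%, 12.7% and 13.9% of that of PCE at 24, 48 and 72 h. The persistently lower clusters held 17.7% of the control's and 1.88%, 1.87% and 1.81% of the PCE libraries'. The control was listed at 0 in 1153 of the persistently higher clusters (34.1%), and at least 1 PCE library was listed at 0 in 1075 of the persistently lower ones (40.8%). With detection in all 4 libraries, 1678 clusters (12.3%) were persistently higher and 1297 (9.47%) persistently lower, and 488 and 346 of these differed by at least 2 at every time.

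**Figure D2:**
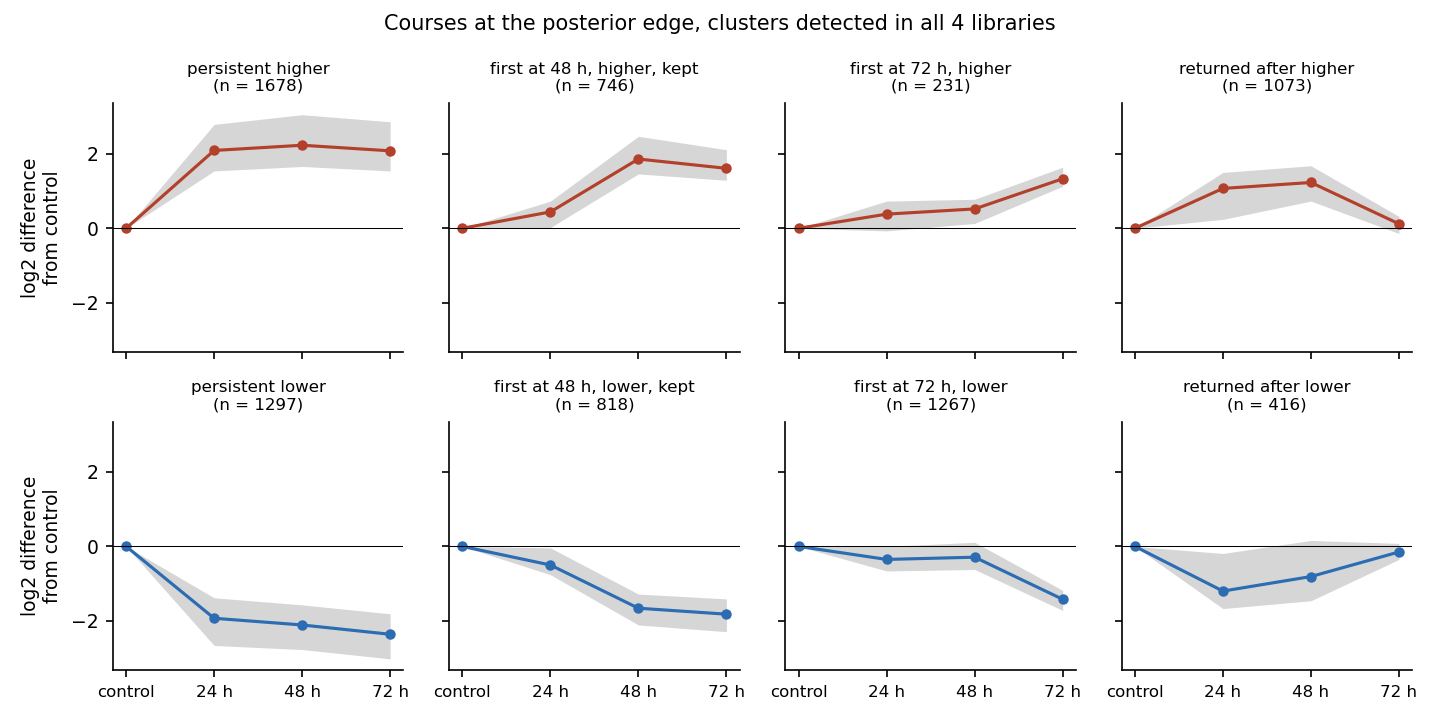
Median difference from the control on log2(FPKM + 1) at PCE 24, 48 and 72 h (line) with the range of the middle 50% of clusters (band), for 8 courses among the clusters detected in all 4 libraries; the courses were defined by these same values. Persistent groups have medians of 2.09 and -1.93 at 24 h, and the groups first changed at 48 h hold just the clusters still changed at 72 h, with medians of 1.86 and 1.61 at 48 and 72 h for the higher one.

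Individual clusters show how large these courses can be. They were taken as the most extreme in each course among members detected in all 4 libraries, so their size is a consequence of the choice. Cluster-118330.128735 had 61.0 FPKM in the control, then 20891, 40806 and 16458 FPKM in the PCE series, which is 8.40, 9.36 and 8.05 above the control on the log2 scale. Cluster-118330.129739 had 1.18 FPKM in the control, then 714, 1242 and 164 FPKM in the PCE series. Both were highest at 48 h and lower again at 72 h, while still far above the control. In the other direction, Cluster-118330.129107 had 1271 FPKM in the control, then 5.34, 2.12 and 3.53 FPKM in the PCE series, and Cluster-118330.132596 had 562 FPKM in the control, then 1.71, 2.65 and 1.95 FPKM in the PCE series. Both were near their lowest level already at 24 h and showed no recovery.

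At the anterior edge these clusters lay on the same side of the control. This is no independent check, because they were chosen as extreme against the same control library. ACE at 24, 48 and 72 h was at 18424, 25371 and 10127 FPKM for Cluster-118330.128735 and at 1073, 1148 and 389 FPKM for Cluster-118330.129739. Cluster-118330.129107 was at 16.3, 5.76 and 6.29 FPKM there, and Cluster-118330.132596 at 5.36, 0.69 and 0.83 FPKM.

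**Figure D3:**
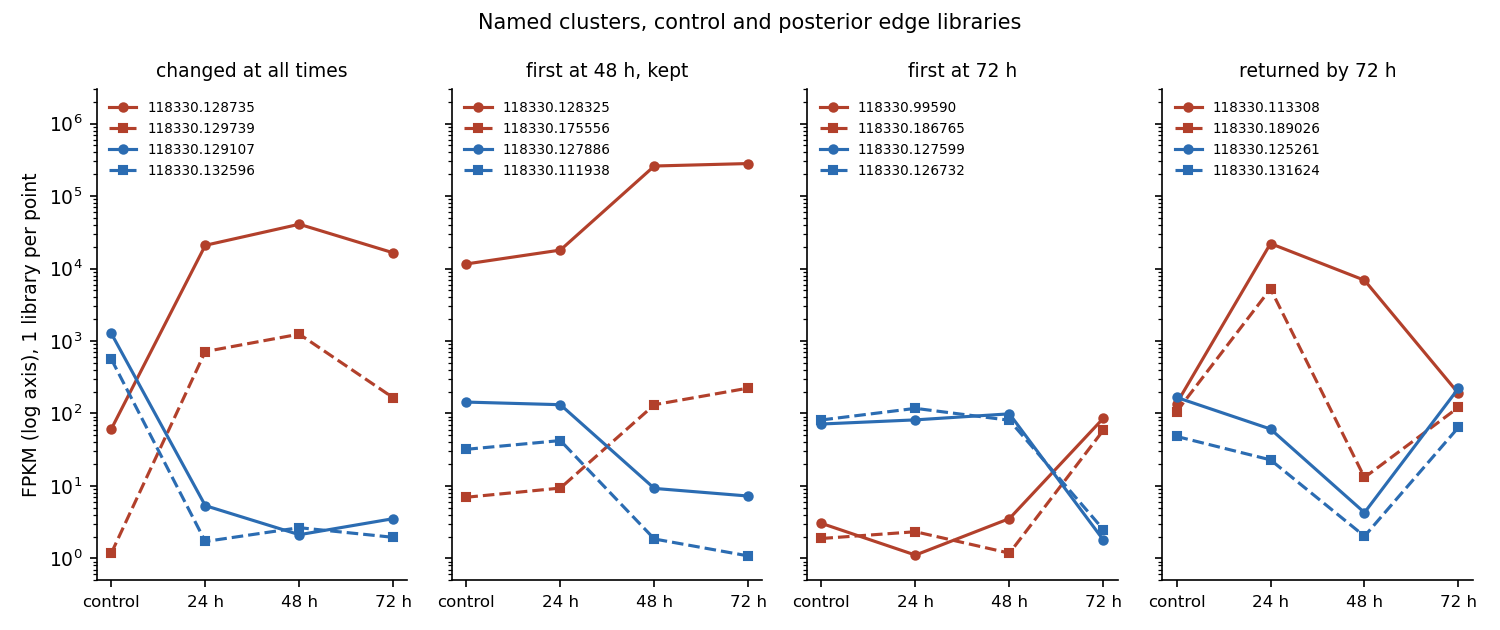
FPKM (log axis) of the 16 clusters taken as most extreme in their course, in the control and in PCE at 24, 48 and 72 h, with 1 library per point, clusters higher than the control in red and lower in blue; legends give identifiers without the word Cluster. The persistent pair in red stays above its control value at all times, and the pair in blue in the third panel stays near its control value until 48 h and is at 1.79 and 2.49 FPKM at 72 h.

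Of the clusters first changed at 48 h, those that kept the change at 72 h were 1857 of 2951 higher (62.9%) and 1328 of 1854 lower (71.6%). The kept higher clusters had a median of 0 FPKM in the control and at 24 h, and of 19.3 and 18.2 FPKM at 48 and 72 h. Many were therefore clusters not seen before 48 h, and 1063 members were detected in PCE 48 h and PCE 72 h and higher there, but in neither of the earlier libraries. Such clusters were members only if they were also detected at 72 h, and 3567 clusters detected in PCE 48 h alone were removed. The kept share of higher members is therefore in part set by the rule. With detection in all 4 libraries, 746 of 1768 higher clusters (42.2%) and 818 of 1193 lower ones (68.6%) kept the change. The order of these shares turned with median-of-ratios scaling, which gave 57.8% for the higher and 53.4% for the lower clusters.

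The kept higher clusters held 2.45% of the control's summed FPKM and 2.03% of that of PCE 24 h, but 18.0% and 19.0% of that of PCE 48 h and 72 h. A single cluster made up much of this. Cluster-118330.128325, the member with the highest mean, took 0.641% of the control's sum and 0.596%, 10.1% and 13.0% of the sums of PCE at 24, 48 and 72 h. Its control level was 11561 FPKM, and the PCE series had 17957, 259640 and 280779 FPKM. ACE had 32500, 44130 and 13911 FPKM in order of time, a difference from the control of 0.27 at 72 h where PCE differed by 4.60. Cluster-118330.175556 followed the same order at a far lower level, from a control value of 6.97 FPKM through PCE values of 9.33, 132 and 224 FPKM. This cluster also rose in ACE, with 10.35, 93.8 and 53.8 FPKM at 24, 48 and 72 h. Its ACE values at 48 and 72 h were 3.57 and 2.78 above the control.

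The lower clusters of this course were within 1 of the control at 24 h and further below it at 48 and 72 h. Cluster-118330.127886 had 143 FPKM in the control, then 132, 9.23 and 7.24 FPKM in the PCE series. Cluster-118330.111938 had 32.0 FPKM in the control, then 42.2, 1.85 and 1.08 FPKM in the PCE series. In ACE these clusters were below the control by at least 1 at all 3 times, with differences of -1.79, -2.43 and -1.82 for Cluster-118330.127886 and of -1.42, -1.87 and -2.10 for Cluster-118330.111938.

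First changes at 72 h were rarer among members, and lower clusters outnumbered higher ones on both scales. The rule shapes both counts, since 2200 clusters detected in PCE 72 h alone were removed, while clusters lost at 72 h could stay. With detection in all 4 libraries, 231 were higher and 1267 lower, and 492 and 718 after median-of-ratios scaling. The 1459 lower members had a median of 16.8 FPKM in the control, of 14.7 and 14.5 FPKM at 24 and 48 h, and of 4.65 FPKM at 72 h. They held 14.5% of the control's summed FPKM and 4.51% of that of PCE 72 h. Cluster-118330.127599 had 71.4 FPKM in the control, then 81.5, 98.7 and 1.79 FPKM in the PCE series, and Cluster-118330.126732 had 81.2 FPKM in the control, then 117, 80.5 and 2.49 FPKM in the PCE series. Their values at ACE 72 h were unlike each other, at 107 FPKM for Cluster-118330.127599 and at 9.24 FPKM for Cluster-118330.126732.

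The 234 higher clusters had a median of 6.39 FPKM in the control and of 8.04, 9.10 and 19.6 FPKM at 24, 48 and 72 h. Cluster-118330.99590 had 3.04 FPKM in the control, then 1.11, 3.54 and 86.0 FPKM in the PCE series. Cluster-118330.186765 had 1.88 FPKM in the control, then 2.33, 1.18 and 58.8 FPKM in the PCE series. Both are low in the control and in PCE before 72 h. Quantile normalization puts Cluster-118330.99590 at -1.73 from the control at 24 h and Cluster-118330.186765 at -1.40 at 48 h. Their first change would then come earlier. In ACE at 24, 48 and 72 h, Cluster-118330.99590 was at 7.24, 4.46 and 53.8 FPKM and Cluster-118330.186765 at 22.9, 2.10 and 15.15 FPKM. At ACE 72 h they thus also lay above the control, by 3.76 and 2.49.

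Return to within 0.5 of the control at 72 h was seen in 3237 of the 20048 members that had changed at 24 or 48 h (16.1%). A further 2355 (11.7%) lay between 0.5 and 1 from it, and 14456 (72.1%) were at least 1 away. Close to the limit, 430 lay 0.4 to 0.5 and 459 lay 0.5 to 0.6 from the control. By direction, of those that had been only higher, 2241 of 11133 came back (20.1%), and of those that had been only lower, 736 of 7004 (10.5%). With detection in all 4 libraries 1073 of 5069 higher clusters (21.2%) and 416 of 3718 lower clusters (11.2%) returned. After median-of-ratios scaling this order turned, with 696 of 4820 higher clusters (14.4%) and 684 of 3930 lower clusters (17.4%), while over all members the shares were 17.0% and 14.3%.

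Return has more than 1 form. In 1012 of the returned members (31.3%) the control and PCE 72 h were both listed at 0. Among the 4 libraries, these were held by PCE 24 h and PCE 48 h alone. Whether they came and went at the edge or belong to those libraries in particular cannot be told apart here. In 1574 (48.6%) all 4 libraries held the cluster. Among all clusters detected in all 4 libraries, a change present at 24 h only ended in return in 544 of 2144 clusters (25.4%), a change at 48 h only in 653 of 2961 (22.1%), and a change in the same direction at both times in 292 of 3682 (7.93%). Over all members return followed in 705 of 4697, 714 of 4805 (14.9%) and 1558 of 8635 (18.0%), so the order differs between the sets. The rule has a part in this. A cluster missing from the control and PCE 72 h is a member only if detected at both 24 and 48 h. The 1012 members listed at 0 in both therefore all count under a change at both times. Members whose identifier begins with a number other than the most common one returned in 679 of 1152 cases (58.9%) after a change at both times. Without them the shares over members were 18.7%, 16.6% and 11.7%. None of these differences was tested.

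**Figure D4:**
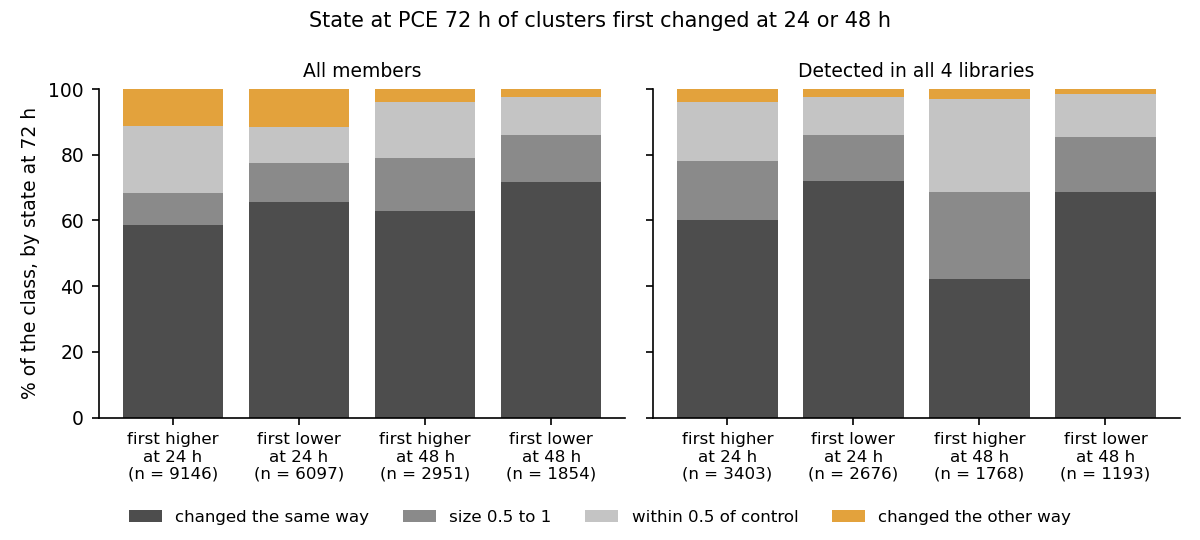
State at PCE 72 h of the clusters that first changed at 24 or 48 h, as a share of each class, for all members (left) and those detected in all 4 libraries (right); gray shades run from still changed the same way, over a size of 0.5 to 1, to within 0.5 of the control, and orange marks change in the opposite direction. Among members first higher at 24 h, 58.7% were still higher at 72 h and 20.3% were within 0.5 of the control, against 65.7% and 10.9% for those first lower, on the authors' scale. With median-of-ratios scaling the order of the shares still changed turns, at 63.4% of the first higher and 60.1% of the first lower members.

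The largest excursions that ended near the control were in abundant clusters. Cluster-118330.113308 had 136 FPKM in the control, then 22091, 6883 and 189 FPKM in the PCE series. Cluster-118330.189026 had 106 FPKM in the control, then 5245, 13.1 and 122 FPKM in the PCE series, so it passed below the control at 48 h. ACE 24 h, the time of the posterior maximum, listed both at 0. At ACE 48 and 72 h Cluster-118330.113308 was at 33957 and 6878 FPKM, and at 72 h it was still 5.64 above the control. Cluster-118330.189026 was at 11.75 and 4.44 FPKM there, so it lay below the control at all ACE times. Whether the zeros at ACE 24 h stand for low levels or for missing values was not tested. Among transient losses, Cluster-118330.125261 had 167 FPKM in the control, then 60.9, 4.28 and 222 FPKM in the PCE series, and Cluster-118330.131624 had 48.2 FPKM in the control, then 22.9, 2.02 and 64.4 FPKM in the PCE series. Both were lowest at 48 h. In the order named, these 4 clusters differed from the control at 72 h by 0.47, 0.20, 0.41 and 0.41 on the authors' scale. With median-of-ratios scaling the differences were 0.81, 0.54, 0.76 and 0.75, so that all 4 lay outside 0.5.

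Courses that changed sides were common in members missing from a library and rare otherwise. In all, 2822 members (11.3%) were higher than the control at some time and lower at another, but only 449 of these were detected in all 4 libraries, or 3.28% of that set. Steps of at least 1 that went up, down and up again were found in 2225 members (8.94%), and down, up and down in 1778 (7.14%). The corresponding shares with detection in all 4 libraries were 2.15% and 3.80%.

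A course up, down and up was present in abundant clusters as well. Ranks 2 to 5 by mean FPKM stood between 10262 and 18082 FPKM in the control, between 40426 and 63533 FPKM at 24 h, between 17585 and 28805 FPKM at 48 h and between 87766 and 123421 FPKM at 72 h. Together they made up 2.83% of the control's sum, and 7.06% and 3.29% of the sums of PCE 24 h and PCE 48 h. Their part was largest in PCE 72 h, with 432197 of 2162203 FPKM. Cluster-118330.128789, the first of them, had 18082 FPKM in the control. Its PCE values were 61688, 28805 and 120561 FPKM in order of time, and its ACE values 35614, 20450 and 18580 FPKM. FPKM is relative to the whole library, so a cluster's value also depends on how much the most abundant ones take. The 100 most abundant members held 43.0% of the control's sum and 32.9%, 53.0% and 59.2% of the sums of PCE at 24, 48 and 72 h, and the part of this in the lower values at 72 h was not tested. Of these 100, 22, 27 and 23 were higher at 24, 48 and 72 h, and 7, 8 and 35 were lower. In this group, 99 were detected in all 4 libraries. Among all clusters so detected, 24.8%, 30.5% and 22.7% were higher at these times and 19.5%, 19.9% and 30.7% were lower. The lower counts were thus below these shares at 24 and 48 h and close to the share at 72 h. The 100 were ranked by the mean over the control and the PCE libraries themselves, so low values at the edge work against a place among them. This comparison is therefore in part set by the choice. All of these values are on the authors' scale.

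By abundance, among members with a mean of 5 to 10 FPKM, 63.1%, 61.4% and 65.2% had changed at 24, 48 and 72 h, and among those with a mean of 200 or more 53.6%, 59.9% and 70.8%. The share that was persistently higher grew with level, at 10.6% for a mean of 5 to 10, 13.3% for 10 to 20, 16.9% for 20 to 50, 22.8% for 50 to 200 and 24.2% for 200 or more. The persistently lower share stayed between 9.51% and 12.4%. The level is the mean over the control and the PCE libraries themselves. Lasting high values at the edge thus raise a cluster's level and lasting low values reduce it, so these trends are in part set by the measure. Return was least frequent at the top, with 14.1% of members at a mean of 5 to 10 and 7.88% at 200 or more. Detection in all 4 libraries moved with level, at 41.7% of members in the lowest class and 92.5% in the highest, and its part in these shares was not tested.

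Members missing from the control fell into combinations of edge libraries. Besides the 1851 detected in all 3 PCE libraries and not in the control, 1450 were detected at 24 and 72 h but not at 48 h, 1252 at 24 and 48 h, and 1067 at 48 and 72 h. Among clusters of the most common identifier group these pairs held 534, 533 and 566 members, so the order of the pairs differs there.

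**Figure D5:**
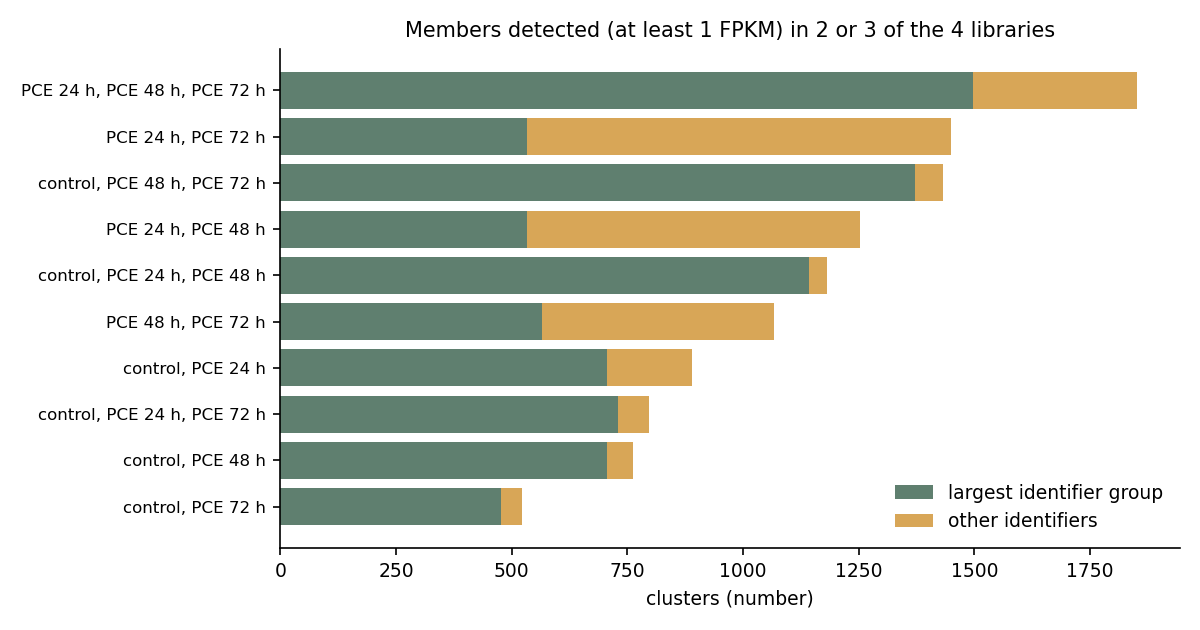
Number of members by the set of libraries in which they reached at least 1 FPKM, for members detected in 2 or 3 of the 4 libraries, split by whether the identifier begins with 118330 (the number shared by most clusters) or with another number. Other identifiers are most frequent in sets of 2 PCE libraries without the control, such as PCE 24 h with PCE 72 h (916 of 1450).

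The number before the point of the identifier is 118330 in 21777 members (87.5%) and another number in 3121, which carry 3082 different numbers. Of all 433380 clusters, 41.4% have another number. The labels do not say what that number means. Of the 3121, 74.4%, 54.5% and 61.1% were higher than the control at 24, 48 and 72 h and 5.90%, 10.1% and 9.74% lower. Of the 21777, 31.3%, 34.9% and 28.9% were higher and 27.2%, 26.3% and 35.1% lower. The rule asks for detection in 2 or more of the control and PCE libraries. A set that is mostly missing from the control therefore has to be frequent in PCE and mostly higher there. These shares are thus in part set by the rule, and what else they hold was not tested. The 3121 were detected in 78.8%, 61.2% and 68.1% of cases in PCE at 24, 48 and 72 h, in 10.3%, 14.9% and 14.4% in ACE, and in 20.2% in the control. The 21777 were detected in 85.6% to 91.5% of cases in each of the 7 libraries. By the rule applied to the control and ACE, 604 of 26006 clusters had another number.

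These clusters held 0.239% of the control's summed FPKM and 2.56%, 0.984% and 1.38% of that of PCE at 24, 48 and 72 h. Their persistently higher share was 10.7% and their persistently lower share 0.641%, while 29.9% were higher at 24 and 72 h but not changed at 48 h. Among the 180 of them detected in all 4 libraries, 40.0%, 41.1% and 38.9% were higher and 9.44%, 8.33% and 13.3% lower at 24, 48 and 72 h. Within the larger identifier group alone, the persistent shares were 14.0% higher and 12.0% lower, and 14.4% never changed.

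Leaving out PCE 24 h and applying the rule to the other 3 libraries kept 21603 clusters. Of these, 62.7% had changed at 48 h and 65.7% at 72 h, close to the shares with that library. Return by 72 h then concerns changes at 48 h alone and was found in 10.3%.

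Levels can also be set against each other across clusters. Among clusters detected in all 4 libraries, Pearson's r with the control was 0.643, 0.596 and 0.568 for PCE at 24, 48 and 72 h. Between PCE libraries r was 0.728 for 48 with 24 h, 0.759 for 72 with 24 h and 0.822 for 72 with 48 h. Over all 24898 members r with the control was 0.228, 0.412 and 0.327 at 24, 48 and 72 h, so the order of likeness to the control differs between the sets. Between PCE libraries it was 0.245 for 48 with 24 h, 0.278 for 72 with 24 h and 0.551 for 72 with 48 h. These are descriptions over clusters of 4 libraries, and clusters are no replicates.

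The anterior edge was put through the same rule with the same control library, so the values of both edges stand side by side and neither was tested against the other. Its rule kept 26006 clusters. At ACE 24, 48 and 72 h, 30.9%, 34.2% and 29.8% were higher than the control and 24.8%, 23.4% and 17.7% lower. Changed in either direction at 24, 48 and 72 h were 61.2%, 61.7% and 64.9% of the PCE members and 55.7%, 57.6% and 47.5% of the ACE clusters.

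On the 12605 clusters that passed both rules and were detected in all 7 libraries, the shares of changed clusters can be set side by side. Changed at 24 h were 5416 in PCE (43.0%) and 5476 in ACE (43.4%), and at 48 h 6297 in PCE and 5933 in ACE. At 72 h they were 6658 in PCE (52.8%) and 4674 in ACE (37.1%). Within 0.5 of the control at 72 h were 3040 clusters in PCE (24.1%) and 4555 in ACE (36.1%). Median-of-ratios scaling over the 7 libraries, chosen after the values were seen, gave 25.6% in PCE and 38.4% in ACE. The median size of the difference at 72 h was 1.07 in PCE and 0.73 in ACE, and 1.04 and 0.70 with that scaling. Lower clusters at 72 h were 31.6% in PCE and 11.6% in ACE on the authors' scale, but 23.8% in PCE and 16.7% in ACE with scaling.

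As a measure of how often libraries of the same time differ, PCE and ACE were at least 1 apart in 33.0% of these clusters at 24 h, 14.8% at 48 h and 45.4% at 72 h. Such a difference holds the edge and the variation between libraries together. The shares of PCE clusters that differed from the control, given above, were higher than these at each time, and at 72 h they were 52.8% and 45.4%. For ACE the shares that differed from the control were 43.4%, 47.1% and 37.1%. At 72 h the ACE share was thus lower than the share of clusters in which the edges differed.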

How the data were processed

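RNA of zebrafish tail fin was sequenced by the authors in 7 libraries with 1 per group, of which 4 are the subject here. Trizol served for extraction and an NEBNext Ultra kit for the libraries, per the labels' protocols. The authors deposited 1 table of FPKM values. Named tools are edgeR, HTSeq 0.9.1 and HISAT2 2.0.5, per the submitters' processing notes, without their roles, and no genome build is named. FPKM is relative to each library's total and hides cluster lengths and fragment numbers, so no counting interval can be given. Near-identical transcripts may be split between clusters.

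Values were analysed as log2(FPKM + 1), which understates differences of low clusters. Changed means a size of at least 1, returned a size of at most 0.5 at 72 h after a change at 24 or 48 h. Named clusters are the 2 highest and 2 lowest of each of 4 courses among members detected in all 4 libraries, plus the 2 with the highest mean. Members and lists were chosen with earlier results of these data known. The planned lists of cell type markers could not be applied without gene names. Relative depth is the most frequent ratio of low values between a library and the control, over 268 to 628 clusters, and is rough. Median-of-ratios scaling split by direction was added after the values were seen. Alternatives covered the minimum mean, detection, pseudocount, scaling, size threshold, tolerance, the PCE 24 h library and the identifier group. The class rules were tested on simulated courses with changes well beyond the limit, little noise and no zeros. This checks the rules as written and not their error in these data. Python 3.11.15, numpy 2.4.6, pandas 2.3.3 and matplotlib 3.10.9 were used.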

Additional observations from a re-analysis of the deposited data

Results flagged for a closer look

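In clusters detected in all 4 libraries, higher clusters made up 60.5% of those changed at PCE 48 h and 42.5% at PCE 72 h, so the balance against the control turned between these times. The difference between the times was not tested, since each time is 1 library. With median-of-ratios scaling the shares were 57.4% and 54.5%, and the balance did not turn. That scaling sets the typical cluster equal between libraries, so it takes out such a turn in part by design.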

How the results depend on the processing

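Shares were recomputed under 13 other settings. Of 129 values, 100 stayed within 1.5 times the share reported, or within 10 percentage points for the balance of higher and lower. A further 21 moved more and 8 put the balance on the other side of 50%. The share changed and the share first changed at 24 h are the same by definition, and both were counted. The limit is also wide, since a fall at 24 h from 61.2% to 44.4% with detection in all 4 libraries stays within it. The share of changed clusters that was higher was 47.2%, 48.6% and 38.8% at 24, 48 and 72 h with a balanced mean of control and PCE, and 46.8%, 50.5% and 49.6% with quantile normalization. At 72 h it was 42.5% with detection in all 4 libraries, 49.7% with a threshold of 1.5-fold and 48.0% without PCE 24 h. With a size threshold of 2, 40.6%, 36.6% and 39.0% had changed at 24, 48 and 72 h, and 6.36% and 4.05% were persistently higher and lower. Persistently lower clusters outnumbered higher ones with a minimum mean of 1 FPKM (7.95% higher and 9.46% lower), quantile normalization (9.04% and 13.7%) and the balanced mean (11.2% and 16.3%). First change at 72 h was 10.9% with detection in all 4 libraries. Without PCE 24 h, first change came at 48 h in 62.7% and at 72 h in 16.4%, since 24 h is then not seen, and return was 10.3%. Return was 10.4% with a tolerance of 0.25 and 27.9% with 1. With the largest identifier group left out, 92.7%, 84.3% and 86.3% of changed clusters were higher at 24, 48 and 72 h, first change at 72 h was 0.545% and the persistently lower share 0.641%. Where no other cause follows from the setting itself, the cause was not tested. No paired analysis was possible because each group has 1 library. Depth per cluster is unknown, so small differences of low clusters cannot be weighed.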
